A study of Mus musculus with 14 samples.

Results

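Solute carriers are the membrane proteins, numbered into substrate families as *Slc* genes, that move nutrients, ions, metals and metabolites across the plasma membrane and the membranes of organelles without hydrolysing ATP themselves. The carriers described here are the members of this superfamily that mouse blastocyst libraries express outside a set of 16 transporters, mostly amino acid and glucose carriers, that were left out by name. Members were all genes with a symbol of *Slc*, a family number, letters and a further number, and with at least 1 probe detected (detection p under 0.01, from that array's negative controls) on at least 2 of 14 arrays. The rule gave 151 genes with 183 tested probes, out of 8669 tested units, a unit being a gene or a probe without a gene symbol. Another 148 carrier symbols on the array had no probe that passed. Of the 151 genes, 98 were detected on all 14 arrays and 53 on 2 to 13 of them. The rule itself uses detection and names and compares no groups. A dim gene can still pass only through the arrays of groups where it is high. For such genes the filter is not independent of group. The 16 symbols were set aside with earlier results of these data known.

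A blastocyst takes up what it needs from the fluid around it. Carriers of the apical and basolateral membranes of its outer epithelium, the trophectoderm, feed amino acids, sugars, vitamins and metals to the inner cells, and sodium- and bicarbonate-coupled carriers help to set the ions and pH of the cavity. Carriers inside the cell link the cytosol to mitochondria, the Golgi apparatus and lysosomes, so the superfamily covers both what enters an embryo and how it is used.

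RNA of mouse samples, 150 ng in total per array and transcribed in vitro for 12 h, was hybridised to Illumina bead arrays of 1 colour. HTF/MultiBlast stands for multiblastocysts kept in HTF (3 arrays), ISM1/ISM2 and KSOM(aa) for blastocysts kept in the media of those names (3 and 2 arrays), and the groups labelled oviduct and micromanipulation control had 3 arrays each, the latter called the control below. The labels state neither strain, age and number of embryos per array nor what was done to the micromanipulation control. All levels below are normalized log2 intensities, where the lowest detected signal lay at 5.08 to 5.69 depending on the array, and they compare 1 probe across arrays, never 1 gene with another. A probe that no array of a group detected is called dark there. The series text calls the replicates biological, but the 3 micromanipulation control arrays share replicate number 1 in their descriptions. The p-values rest on the spread among arrays as labelled, which may be technical in the control. All groups share 1 estimate of that spread, so the control arrays enter the p-values of every comparison. Fits of only the groups compared, given at the end, leave them out except in the control's own comparison.

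The oviduct label was checked against markers. *Ovgp1*, *Pax8*, *Krt5* and *Tppp3* of oviduct epithelium were detected on 0 arrays, and so were *Myh11*, *Dcn*, *Ptprc*, *Hba-a1* and *Has2* of muscle, stroma, blood and cumulus cells. The remaining muscle and stroma marker, *Acta2*, was detected on 5 arrays, 2 of them oviduct, and no difference of it from oviduct passed. The blastocyst genes *Cdx2*, *Pou5f1*, *Nanog*, *Gata3*, *Krt8* and *Krt18* were detected on all 14, oviduct included. Each group is called by its label below. Between 115 carriers (oviduct replicate 1) and 136 (oviduct replicate 2) were detected per array. Replicates spread most in oviduct (root mean square SD over the 151 carriers 0.52 log2) and KSOM(aa) (0.49), and least in the micromanipulation control (0.25), with HTF/MultiBlast at 0.28 and ISM1/ISM2 at 0.35.

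Which carriers differ between blastocysts of the culture groups and the oviduct group was the first question. In ISM1/ISM2, 52 of the 151 carriers (34.4%) passed an adjusted p of 0.05 against oviduct (limma, Benjamini-Hochberg over all 8669 units), 28 higher and 24 lower, and 34 of the 52 differed by at least 2-fold. Over all units the shares were 25.8% in either direction, 14.3% higher and 11.5% lower. In HTF/MultiBlast, 12 carriers (7.95%) passed, 6 higher and 6 lower, against 6.18% of all units, 3.51% higher and 2.68% lower. That split was 13 higher and 4 lower when arrays were scaled to the 75th percentile without background correction, and 5 and 3 with the authors' deposited values. None passed in KSOM(aa) or in the micromanipulation control, where 0.254% and 0.427% of all units passed. At an unadjusted p under 0.05 stood 24 and 29 of the 151 carriers there, and 1086 and 1476 of all 8669 units. An F test across the 5 groups called 41 carriers (27.2%), against 18.5% of all units. The shares of carriers lay near or somewhat above those of all units, and the differences between these shares were not tested. Separation of arrays was common. ISM1/ISM2 and oviduct arrays did not overlap for 41.1% of the carriers and 38.2% of all units. For HTF/MultiBlast and oviduct these shares were 29.8% and 26.3%.

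Changes went both ways, in shares that depended on the scaling: under scaling to the 75th percentile 22 carriers were higher and 13 lower in ISM1/ISM2, in place of 28 and 24. The median log2 difference from oviduct over the 151 carriers was 0.03 in HTF/MultiBlast, 0.00 in ISM1/ISM2, 0.06 in KSOM(aa) and 0.01 in the micromanipulation control, and over all units 0.03, 0.02, 0.01 and 0.03. Of the 41 carriers past the F test, 16 had their highest group mean in ISM1/ISM2 and 21 their lowest. Against oviduct, 97 carriers were called in no group, 44 in 1 and 10 in both HTF/MultiBlast and ISM1/ISM2, comparisons that share the oviduct arrays. Leaving out single arrays moved the ISM1/ISM2 count between 37 and 59, and 22 of the 52 calls passed under each of up to 24 alternative settings that gave the gene a value (23 for dim genes). The HTF/MultiBlast count was less steady. It fell to 5 without HTF/MultiBlast replicate 1 or 3, to 6 without its replicate 2 or without oviduct replicate 3 and to 7 without any 1 micromanipulation control array, and rose to 19 without either KSOM(aa) array.

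**Figure D1:**
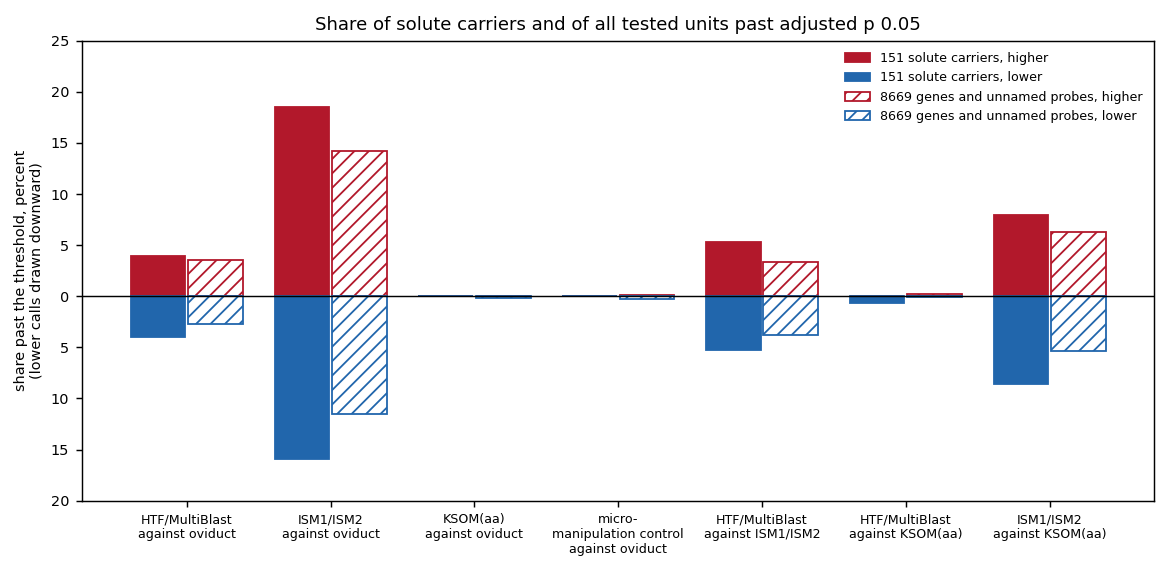
Percent of the 151 solute carriers (solid) and of all 8669 tested units (hatched) past adjusted p 0.05 in 7 comparisons, with higher calls drawn upward in red and lower calls downward in blue. ISM1/ISM2 against oviduct has the tallest bars, with 34.4% of the carriers and 25.8% of all units called in either direction.

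Cell type markers moved in ISM1/ISM2 and HTF/MultiBlast too. Of 4 primitive endoderm markers, *Sox17* (-1.48 log2) and *Pdgfra* (-1.21) fell in ISM1/ISM2 against oviduct, *Sox7*, dark on its 3 arrays, was at least 4.58-fold lower, and *Gata6* rose by 0.58. In HTF/MultiBlast *Sox7* fell by 2.04 log2 (adjusted p = 0.000615), *Gata6* rose by 0.80 (adjusted p = 0.0223), and the other 2 did not pass. In log2 the summed level of the 4 ran from 11.92 to 12.42 on ISM1/ISM2 arrays and from 12.10 to 12.54 on oviduct arrays. It reached 12.51 to 12.94 in HTF/MultiBlast, 12.74 to 13.06 in KSOM(aa) and 12.86 to 13.05 in the control. The sum adds unlogged intensities. The brightest probe, that of *Gata6* (group means of 11.35 to 12.26), therefore weighs most in it and that of *Sox7* (4.74 to 7.57) least. The 6 blastocyst markers summed to 14.91 to 15.24 in ISM1/ISM2 and 15.06 to 15.25 in oviduct, and to 14.87 to 15.11 in HTF/MultiBlast. *Nanog* was higher by 1.07 log2 in ISM1/ISM2 and by 0.81 in HTF/MultiBlast (adjusted p = 0.0411), and *Gata3* fell by 0.68 in ISM1/ISM2. The part of cell composition in the carriers' differences was not tested.

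The largest fall among the carriers was that of an organic cation transporter. *Slc22a4* encodes Octn1, a plasma membrane carrier known for the uptake of the antioxidant ergothioneine. It read 8.54, 8.92 and 9.11 on the oviduct arrays and 8.73, 8.96 and 9.11 on the control arrays. In culture it read 8.55 and 8.56 in KSOM(aa), 7.46, 8.05 and 7.50 in HTF/MultiBlast, and 5.12, 5.38 and 4.95 in ISM1/ISM2. Every HTF/MultiBlast array lay below every oviduct array and every ISM1/ISM2 array below all others, with the probe detected on only 1 of the 3 ISM1/ISM2 arrays. Against oviduct it fell by 3.70 ± 0.22 (SE) on the log2 scale in ISM1/ISM2 (adjusted p = 4.81e-07). In HTF/MultiBlast it fell by 1.19 ± 0.22 log2 (adjusted p = 0.00724, but 0.0809 under scaling to the 75th percentile without background correction). HTF/MultiBlast was 2.52 log2 above ISM1/ISM2 (adjusted p = 7.15e-05). In bulk RNA such as this, fewer cells of a type and less RNA per cell cannot be told apart.

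Its gene lies on chromosome 11 beside *Slc22a21* and *Slc22a5*, which follow each other as protein-coding neighbours in RefSeq's GRCm38.p6 assembly. *Slc22a5*, the carnitine transporter Octn2, read 11.99, 12.12 and 11.49 in oviduct and 10.56, 11.12 and 10.96 in ISM1/ISM2, with no overlap. It fell by 0.99 ± 0.21 log2 (adjusted p = 0.00373), and a second probe detected on all arrays differed by -1.33. This call was lost under the same scaling (adjusted p = 0.138). *Slc22a21*, a further carnitine carrier of the mouse, was detected on 3 arrays, 1 of them oviduct and none ISM1/ISM2, and did not pass.

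Among the 10 carriers of monocarboxylates and organic ions, 4 passed in ISM1/ISM2, 1 higher and 3 lower, where 25.8% of all units passed. The class median was -0.16 log2, and scaling to the 75th percentile left 0 higher and 2 lower. The remaining lower member was *Slc47a1* (Mate1, an exporter of organic cations), at 6.70, 8.36 and 9.50 in oviduct and 6.57, 6.04 and 5.20 in ISM1/ISM2. Its groups barely separated, with oviduct replicate 1 just above the highest ISM1/ISM2 array, and it fell by 2.25 ± 0.55 log2 (adjusted p = 0.00971), which missed the threshold when only these 2 groups were fitted (adjusted p = 0.052). *Slc22a7* (the organic anion carrier Oat2) rose by 0.83 log2. Among members detected on all 14 arrays the flattest group means were those of *Slc22a23* and *Slc16a6*, which spanned 0.65 and 0.95 log2.

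**Figure D2:**
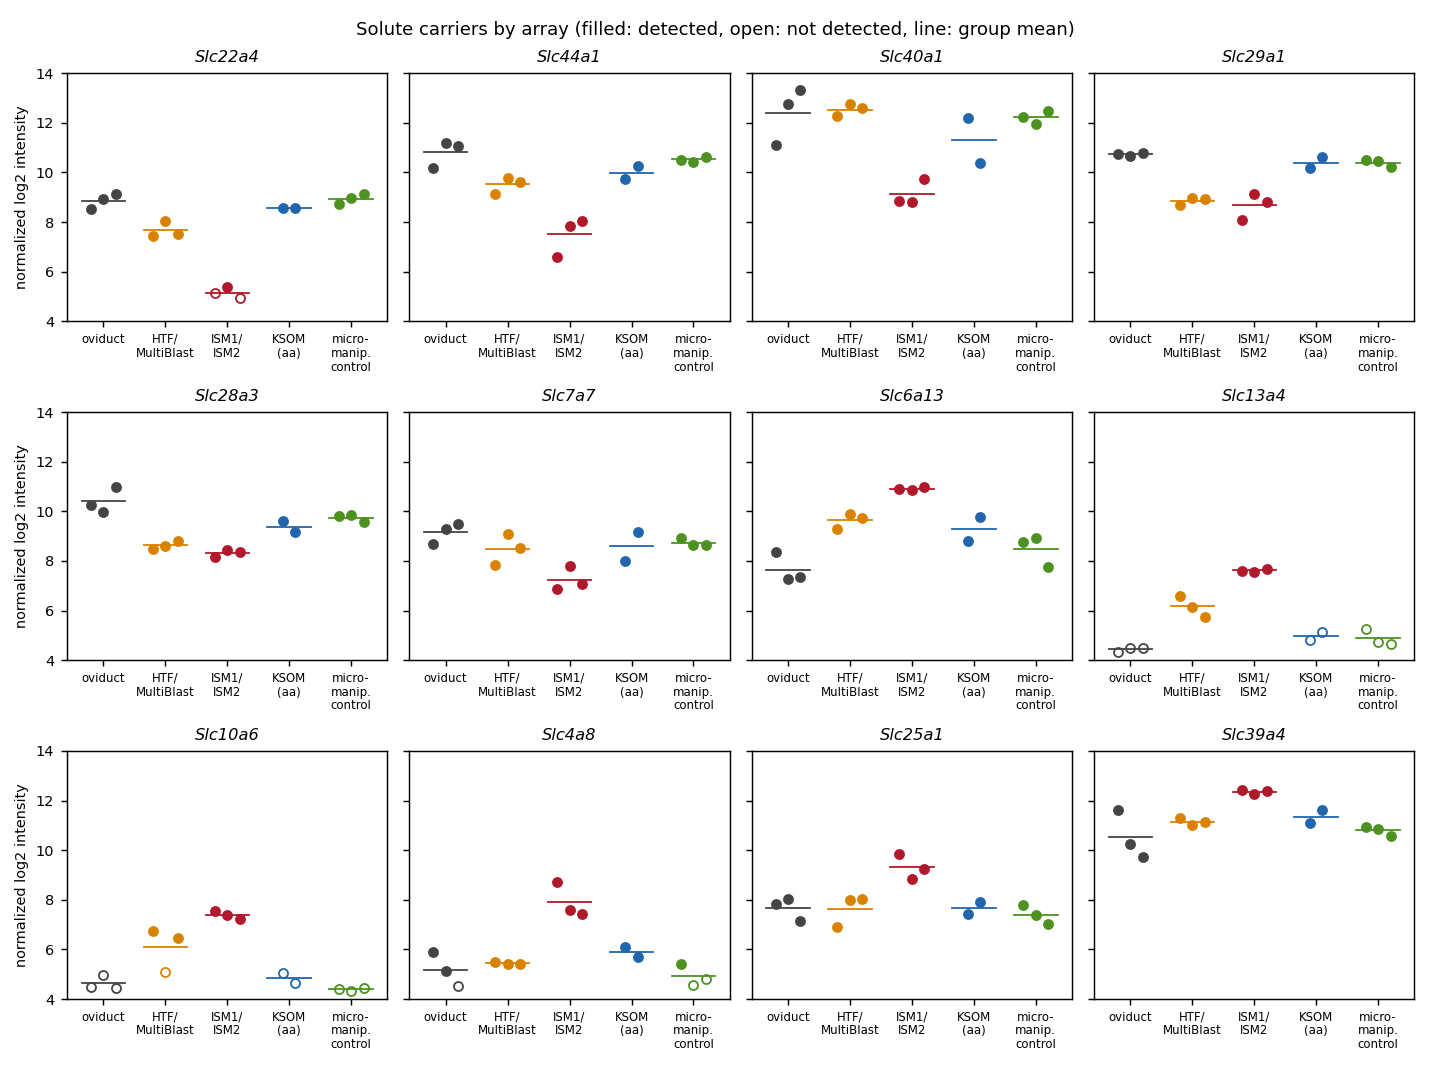
Normalized log2 intensity of 12 carriers on the 14 arrays, 1 panel per gene, with a point per array (filled where detected, open where not) and a line at each group's mean. *Slc22a4*, *Slc44a1* and *Slc40a1* are lowest on the 3 ISM1/ISM2 arrays, and *Slc6a13*, *Slc13a4*, *Slc10a6*, *Slc4a8*, *Slc25a1* and *Slc39a4* are highest there.

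Carriers of choline and of several vitamins fell in ISM1/ISM2, while others of their class rose. The class of vitamin, choline, bile acid, fatty acid and heme carriers had 11 of 20 members past the threshold (55.0%, against 25.8% of all units). Of these, 5 were higher and 6 lower, at a class median of -0.23 log2. The split was 3 higher and 2 lower under scaling to the 75th percentile and 5 and 4 with the authors' deposited values. *Slc44a1*, the choline transporter Ctl1 that feeds phosphatidylcholine synthesis, read 10.16, 11.20 and 11.05 in oviduct, 9.14, 9.77 and 9.63 in HTF/MultiBlast and 6.61, 7.83 and 8.06 in ISM1/ISM2. The 3 groups did not overlap. In ISM1/ISM2 it fell by 3.31 ± 0.36 log2, 9.91-fold (adjusted p = 3.7e-05). A second tested probe of the gene differed by -3.37 log2 and another, dimmer one by -0.07.

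*Slc44a4*, a choline-like carrier that takes up thiamine pyrophosphate, read 11.27, 11.10 and 11.63 in oviduct, 10.26, 10.75 and 10.55 in HTF/MultiBlast and 9.56, 10.02 and 9.60 in ISM1/ISM2. All HTF/MultiBlast arrays lay below oviduct and all ISM1/ISM2 arrays below both. It fell by 0.81 ± 0.23 log2 in HTF/MultiBlast (adjusted p = 0.0498, lost in 16 of 24 alternatives). In ISM1/ISM2 it fell by 1.61 ± 0.23 log2 (adjusted p = 0.000233, passing in all). *Slc52a3*, a riboflavin transporter, fell by 0.78 log2 in HTF/MultiBlast (lost in 15 alternatives) and by 0.92 in ISM1/ISM2. The other lower members in ISM1/ISM2 were *Slc23a2*, a vitamin C carrier (-1.11 log2), *Slc19a1*, the reduced folate carrier (-0.92), and *Slc10a7*, dark on all ISM1/ISM2 arrays and at least 1.37-fold lower.

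On the rising side stood a carrier of sulfated steroids. *Slc10a6* (Soat) was below detection on all oviduct, KSOM(aa) and micromanipulation control arrays, at 4.33 to 5.07. It read 6.76, 5.07 and 6.45 in HTF/MultiBlast, where 2 arrays detected it, and 7.56, 7.37 and 7.21 in ISM1/ISM2. The gene thus passed the detection filter only through HTF/MultiBlast and ISM1/ISM2 arrays. For a group where no array detected a probe, the fold is a bound, set against the lowest signal that its arrays could detect. *Slc10a6* was at least 4.07-fold higher in ISM1/ISM2 than in oviduct (adjusted p = 8.9e-05) and at least 1.67-fold higher in HTF/MultiBlast (adjusted p = 0.0264, lost in 9 alternatives).

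*Slc48a1*, the heme transporter Hrg1, was also dark in oviduct and KSOM(aa). It read 7.44, 6.27 and 5.55 in ISM1/ISM2, at least 2.09-fold above oviduct (adjusted p = 0.00543), and missed the threshold under scaling to the 75th percentile (adjusted p = 0.116). The remaining rises of the class were *Slc23a4* (a nucleobase carrier of rodents, not a vitamin carrier, by 1.20 log2), *Slc19a2* (a thiamine transporter, by 1.01) and *Slc27a3* (a fatty acid acyl-CoA synthetase of the carrier family, by 1.00). For *Slc23a4* the differences of 1.16 log2 in HTF/MultiBlast, 1.74 in KSOM(aa) and 1.22 in the control were of like size but did not pass. Its oviduct arrays spread widely, at 6.33, 5.23 and 4.46. *Slc44a2* and *Slc46a1*, of the choline and folate families, had the flattest group means, spanning 0.50 and 0.53 log2.

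Both plasma membrane nucleoside carriers with high signal fell in 2 culture groups. *Slc29a1*, the equilibrative nucleoside transporter Ent1, read 10.76, 10.67 and 10.78 in oviduct, 10.19 and 10.61 in KSOM(aa) and 10.52, 10.46 and 10.21 in the control. In HTF/MultiBlast it read 8.70, 8.95 and 8.93, and in ISM1/ISM2 8.10, 9.14 and 8.80. The arrays of these 2 groups all lay more than 1 log2 unit below every array of the other 3. Against oviduct it fell by 1.87 ± 0.24 log2 in HTF/MultiBlast (adjusted p = 0.000685). In ISM1/ISM2 it fell by 2.06 ± 0.24 log2 (adjusted p = 5.26e-05).

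*Slc28a3* encodes Cnt3, a carrier that concentrates nucleosides by coupling them to sodium. Its levels were 10.26, 9.97 and 10.98 in oviduct, 8.48, 8.60 and 8.80 in HTF/MultiBlast, 8.14, 8.45 and 8.35 in ISM1/ISM2, 9.60 and 9.17 in KSOM(aa) and 9.81, 9.86 and 9.57 in the control. Every array of the other 4 groups lay below every oviduct array. It fell by 1.78 ± 0.24 log2 in HTF/MultiBlast (adjusted p = 0.00101). In ISM1/ISM2 it fell by 2.09 ± 0.24 log2 (adjusted p = 5.26e-05). For *Slc29a1* and *Slc28a3* both calls passed in all alternatives. In KSOM(aa) the difference of -1.02 log2 did not pass (adjusted p = 0.149).

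The class that holds these 2 genes with the nucleotide sugar and acetyl-CoA carriers had 23 members. Of these, 4 passed in ISM1/ISM2 (17.4%, against 25.8% of all units), 1 higher and 3 lower, at a median of -0.31 log2. *Slc35f5* fell by 1.38 log2 (adjusted p = 0.00242). *Slc35b3*, which brings the sulfate donor PAPS into the Golgi apparatus, rose by 0.95 log2. The flattest members were *Slc35f6* and *Slc29a3*, the latter a lysosomal nucleoside carrier, whose group means both spanned 0.22 log2.

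**Figure D3:**
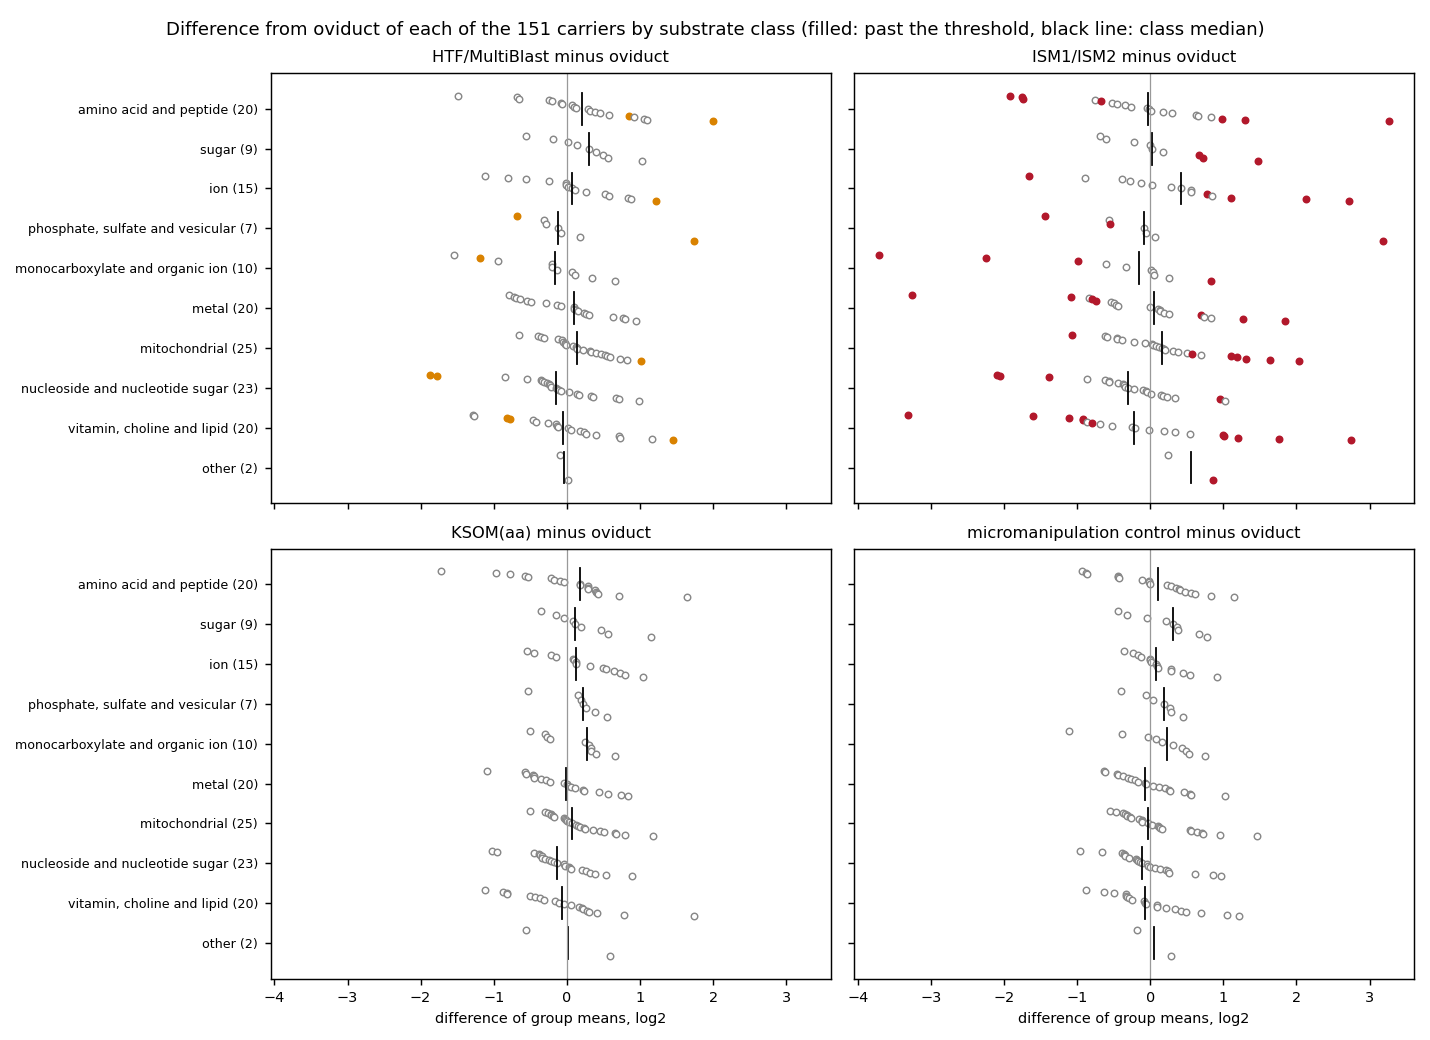
Log2 difference of each carrier from oviduct in the 4 other groups (panels), by substrate class with its number of members (rows), as measured and without bounds, filled where the call passed and with a black line at the class median. Filled points appear on both sides of 0 in ISM1/ISM2 (52) and HTF/MultiBlast (12), and none in KSOM(aa) or the micromanipulation control.

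Iron and zinc carriers held the widest changes among metal transporters. *Slc40a1* is ferroportin, the iron exporter of the cell. It read 11.10, 12.75 and 13.31 in oviduct, 12.27, 12.75 and 12.59 in HTF/MultiBlast, 12.21 and 10.38 in KSOM(aa), 12.22, 11.97 and 12.46 in the control, and 8.84, 8.81 and 9.73 in ISM1/ISM2. Every ISM1/ISM2 array was below all others, while the replicates of oviduct and KSOM(aa) spread by about 2 log2 units. Against oviduct it fell by 3.26 ± 0.52 log2, 9.60-fold (adjusted p = 0.000678), and HTF/MultiBlast was 3.41 log2 above ISM1/ISM2 (adjusted p = 0.0018). Both held in all alternatives.

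*Slc39a4* (Zip4), a zinc importer, read 11.61, 10.24 and 9.71 in oviduct and 12.44, 12.28 and 12.37 in ISM1/ISM2. It rose by 1.84 ± 0.36 log2 (adjusted p = 0.00243). *Slc30a1* (Znt1), the plasma membrane zinc exporter, read 9.55, 9.37 and 8.91 in oviduct and 10.74, 10.35 and 10.55 in ISM1/ISM2. It rose by 1.27 ± 0.22 log2 (adjusted p = 0.0012), again in all alternatives. *Slc39a10*, another zinc importer, read 6.79, 7.14 and 7.22 in oviduct and 6.45, 6.0 and 6.46 in ISM1/ISM2. It fell by 0.74 ± 0.23 log2 (adjusted p = 0.0274), a call lost in 5 alternatives. The oviduct and ISM1/ISM2 arrays of these 3 genes did not overlap, as held for 38.2% of all units.

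In mouse cells *Slc30a1* and the metallothionein genes are known targets of the zinc-sensing factor Mtf1, and *Slc39a10* is known to be repressed through it. *Mt2* rose by 1.48 log2 in ISM1/ISM2 (adjusted p = 0.0302), and *Mt1*, at 13.90 to 14.35 in the group means, differed by 0.25 log2, which did not pass. The other genes read as a metal response, *Mtf1*, *Fth1*, *Tfrc* and *Hmox1*, did not pass there either (adjusted p = 0.161, 0.142, 0.736 and 0.217). Any part of Mtf1 in the differences of *Slc30a1* and *Slc39a10* was not tested. The start regions of both zinc carrier genes are shown because both carry the letters of the metal response element core, TGCNCNC on either strand, here in capitals. These sequences are RefSeq's, of build GRCm38.p6, from 250 bases before the start site to 50 after it, with *Slc30a1* on the plus strand at chr1:191906531-191906830 and *Slc39a10* on the minus strand at chr1:46925727-46926026.
*Slc30a1*: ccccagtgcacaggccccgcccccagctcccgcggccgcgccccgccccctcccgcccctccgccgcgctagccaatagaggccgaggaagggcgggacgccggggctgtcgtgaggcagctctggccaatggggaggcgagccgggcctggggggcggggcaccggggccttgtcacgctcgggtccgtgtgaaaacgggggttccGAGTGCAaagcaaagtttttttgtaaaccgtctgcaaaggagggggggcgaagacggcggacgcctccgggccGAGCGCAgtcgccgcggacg
*Slc39a10*: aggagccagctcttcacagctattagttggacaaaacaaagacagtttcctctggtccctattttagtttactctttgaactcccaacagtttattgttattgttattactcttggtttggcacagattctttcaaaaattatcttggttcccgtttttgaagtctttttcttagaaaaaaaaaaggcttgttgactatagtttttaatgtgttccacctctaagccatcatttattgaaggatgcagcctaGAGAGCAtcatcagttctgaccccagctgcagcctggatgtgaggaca
The matches begin at -43 and 31 from the start site in *Slc30a1* and at 3 in *Slc39a10*, all on the opposite strand, and 1 of the 2 start regions listed for *Slc39a10* holds one. The letters are common: 51.0% of all 32851 start regions of that length hold them, and 58.3% of the 168 that belong to 125 of the carriers. A match is a description of letters and not a binding site.

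Of the 20 metal carriers, 7 passed in ISM1/ISM2, 3 higher and 4 lower (3 and 1 under scaling to the 75th percentile). In HTF/MultiBlast 0 passed (5 at an unadjusted p under 0.05). The shares of all units past the threshold were 25.8% in ISM1/ISM2 and 6.18% in HTF/MultiBlast. The class median of 0.06 log2 in ISM1/ISM2 turned to -0.04 under scaling to the 75th percentile. The further calls were *Slc39a14*, which rose by 0.69 log2, and *Slc39a11* and *Slc30a5*, zinc carriers which fell by 1.08 and by 0.79 log2. *Slc31a2*, of the copper transporter family, and *Slc30a6*, a zinc carrier of the Golgi apparatus, had group means spanning 0.25 and 0.26 log2.

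**Figure D4:**
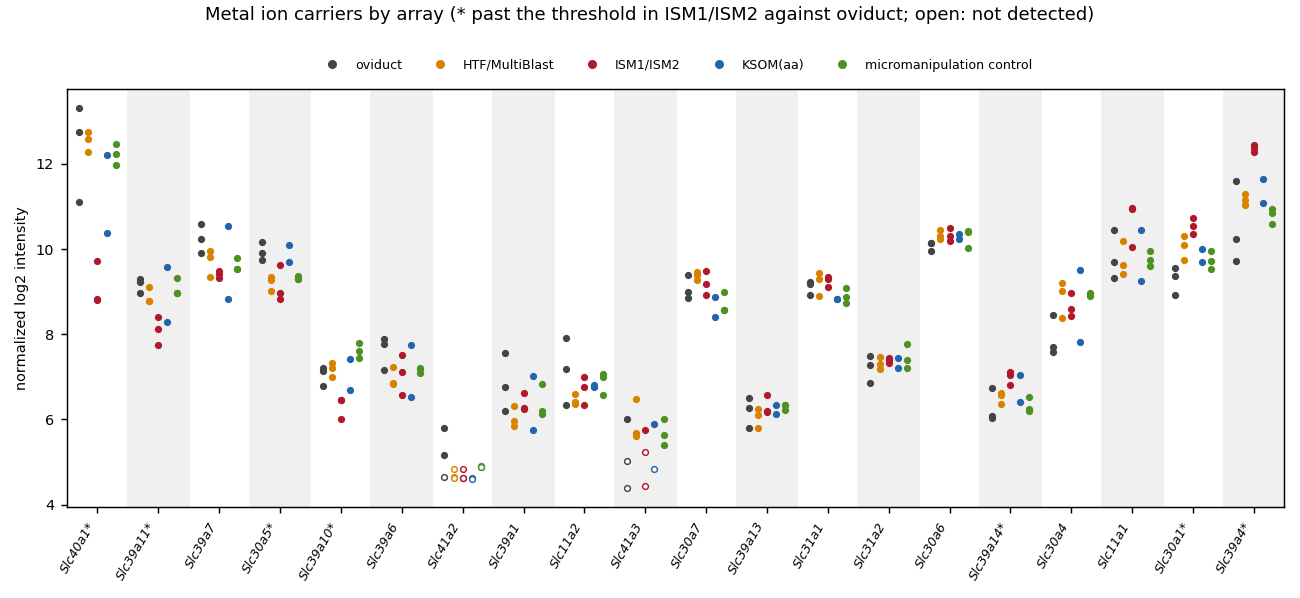
Normalized log2 intensity of the 20 metal ion carriers on each array, coloured by group and ordered by the difference of ISM1/ISM2 from oviduct, with an asterisk where that difference passed and open points where the probe was not detected. *Slc40a1* at the left falls to 8.81 to 9.73 in ISM1/ISM2, and *Slc39a4* at the right reaches 12.28 to 12.44 there.

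Amino acid carriers outside the 16 that were left out moved in both directions. Of 20, 7 passed in ISM1/ISM2, 3 higher and 4 lower, and 2 in HTF/MultiBlast, both higher (2 higher and 1 lower under scaling to the 75th percentile). Over all units 25.8% passed in ISM1/ISM2 and 6.18% in HTF/MultiBlast. *Slc6a13* (Gat2) carries GABA, betaine and taurine, the latter 2 being osmolytes of early embryos. It read 8.35, 7.26 and 7.33 in oviduct, 8.77, 8.91 and 7.76 in the control, 8.81 and 9.77 in KSOM(aa), 9.31, 9.90 and 9.73 in HTF/MultiBlast and 10.91, 10.84 and 10.98 in ISM1/ISM2. Oviduct arrays were lowest but for 1 control array between them, and ISM1/ISM2 arrays stood above all others. The rises were 2.00 ± 0.36 log2 in HTF/MultiBlast (adjusted p = 0.0063) and 3.26 ± 0.36 in ISM1/ISM2 (adjusted p = 3.72e-05), both in all alternatives. Its neighbour on chromosome 6, *Slc6a12*, one of the 16 and a betaine carrier, rose by 1.27 and 2.55 log2.

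*Slc7a7* is y+LAT1, a light chain that works only as a pair with the heavy chain Slc3a2 and exchanges cationic for neutral amino acids. It read 8.70, 9.30 and 9.48 in oviduct, 7.82, 9.09 and 8.53 in HTF/MultiBlast and 6.85, 7.80 and 7.08 in ISM1/ISM2. ISM1/ISM2 arrays were below all oviduct arrays, while HTF/MultiBlast arrays overlapped oviduct and began just above the highest ISM1/ISM2 array. In ISM1/ISM2 it fell by 1.92 ± 0.37 log2 (adjusted p = 0.00242) and a second probe differed by -1.86. *Slc3a2*, one of the 16, fell by 2.08 log2 in the same comparison.

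The start region of *Slc7a7* is shown because it is among the few of the carriers that hold the letters of the C/EBP-ATF response element core, TGATGNAA on either strand, the element through which Atf4 is known to act on amino acid transporter genes. It lies on the minus strand at chr14:54417895-54418194 (RefSeq, GRCm38.p6), with the matches in capitals.
*Slc7a7*: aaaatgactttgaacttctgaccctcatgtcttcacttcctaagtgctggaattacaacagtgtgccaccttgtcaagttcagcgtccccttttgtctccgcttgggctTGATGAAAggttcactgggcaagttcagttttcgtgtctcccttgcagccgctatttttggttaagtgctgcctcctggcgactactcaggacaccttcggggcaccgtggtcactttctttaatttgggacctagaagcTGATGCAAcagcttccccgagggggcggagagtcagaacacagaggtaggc
The 2 matches begin at -141 and -1 from this start site, and 2 of the 5 start regions listed for the gene hold one. Only 4 of the 168 start regions of carriers hold these letters (2.38%), against 3.97% of all. Of these 4, 2 are overlapping regions of *Slc7a7*. The others belong to *Slc23a3* and *Slc50a1*, neither called in ISM1/ISM2 against oviduct. The antioxidant response element core TGACNNNGC was in 18.5% of the carriers' start regions and 12.4% of all, and the E-box CACGTG in 16.1% and 7.15%. None of the matches in the 3 regions printed overlaps a match of another motif.

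Among the Snat carriers of family 38, *Slc38a7*, a lysosomal glutamine exporter, read 8.52, 7.84 and 6.57 in oviduct and 5.88, 5.94 and 5.83 in ISM1/ISM2. It fell by 1.75 ± 0.42 log2 (adjusted p = 0.0081), with no overlap but with oviduct replicate 3 close to the ISM1/ISM2 arrays. *Slc38a5*, a plasma membrane carrier of glutamine and glycine, was detected on 2 oviduct arrays, 1 control array and no array in culture, and oviduct was at least 1.74-fold above ISM1/ISM2 (adjusted p = 0.0086). That call was lost when signals below detection were raised to the lowest detected one (adjusted p = 0.081). *Slc38a4*, an imprinted neutral amino acid carrier, fell by 0.67 log2 in ISM1/ISM2 at levels of 11.01 to 12.08 in the group means.

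Other members of family 38 were higher. *Slc38a11* was dark in KSOM(aa) and the control and detected on every array of HTF/MultiBlast (6.45 to 6.96) and ISM1/ISM2 (6.12 to 7.38), with 1 of 3 oviduct arrays (6.80) among them. Its rise of 1.30 ± 0.43 log2 over oviduct in ISM1/ISM2 (adjusted p = 0.0415) was lost in 16 alternatives. *Slc38a8* rose by 0.99 log2 in ISM1/ISM2 and *Slc38a10* by 0.84 in HTF/MultiBlast (adjusted p = 0.0492, lost in 19 alternatives). *Slc6a8*, the creatine transporter, and *Slc15a4*, a lysosomal histidine and peptide carrier, had the flattest group means among members detected on all 14 arrays, spanning 0.39 and 0.51 log2.

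Mitochondrial carriers were mostly higher where they differed in ISM1/ISM2. Of 25, 7 passed, 6 higher and 1 lower, where 25.8% of all units passed, 14.3% higher and 11.5% lower. The class median was 0.16 log2, and scaling to the 75th percentile left 4 higher and 0 lower. *Slc25a1*, the citrate carrier that exports citrate for lipid synthesis, read 7.85, 8.03 and 7.13 in oviduct, 6.92, 7.97 and 8.02 in HTF/MultiBlast, 7.41 and 7.91 in KSOM(aa) and 7.77, 7.40 and 7.02 in the control. ISM1/ISM2 arrays read 9.86, 8.82 and 9.24, above all others. The rise over oviduct was 1.64 ± 0.36 log2 (adjusted p = 0.00505), and a second, dimmer probe differed by 1.32.

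*Slc25a41*, an exchanger of ATP-Mg and phosphate, was detected on 4 arrays, the 3 of ISM1/ISM2 (7.06, 6.89 and 7.07) and oviduct replicate 3 (5.99). The difference from oviduct was 2.04 ± 0.32 log2 (adjusted p = 0.000543), and in ISM1/ISM2 it was at least 3.35-fold above HTF/MultiBlast (adjusted p = 0.000817) and at least 3.22-fold above KSOM(aa) (adjusted p = 0.00126). Both aspartate-glutamate carriers, which serve the malate-aspartate shuttle, rose in ISM1/ISM2: *Slc25a12* by 1.18 log2 and *Slc25a13* by 1.11. *Slc25a13* also rose in HTF/MultiBlast, by 1.01 log2 (adjusted p = 0.0277, lost in 6 alternatives).

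The other rises were *Slc25a36*, a pyrimidine nucleotide carrier, by 1.31 log2, and *Slc25a26*, which brings in S-adenosylmethionine, by 0.57. *Slc25a36* was not detected on oviduct replicates 1 and 3. Its differences of 0.72 log2 in HTF/MultiBlast, 0.80 in KSOM(aa) and 1.46 in the control did not pass. The 1 lower member was the phosphate carrier *Slc25a3*, by 1.06 log2 at group means of 11.19 to 12.25, where a second probe differed by only -0.19. The ADP/ATP carrier *Slc25a5* (13.72 to 13.95) and the mitochondrial iron importer *Slc25a28* had group means spanning 0.23 and 0.48 log2.

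Of 15 ion carriers, 5 passed in ISM1/ISM2 (33.3%, against 25.8% of all units), 4 higher and 1 lower. The class median was 0.42 log2, and 0.07 under scaling to the 75th percentile. *Slc4a8*, a sodium-driven exchanger of chloride for bicarbonate, read 5.88, 5.14 and 4.51 in oviduct, 5.50, 5.42 and 5.41 in HTF/MultiBlast, 6.10 and 5.70 in KSOM(aa) and 5.42, 4.58 and 4.81 in the control. The ISM1/ISM2 arrays, at 8.70, 7.58 and 7.41, stood apart. The rise over oviduct was 2.72 ± 0.37 log2 (adjusted p = 0.000195), and the probe was not detected on oviduct replicate 3.

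*Slc26a5* encodes prestin, known as the motor protein of the outer hair cells of the ear. It was dark on all oviduct arrays and detected on all ISM1/ISM2 arrays (6.64, 6.55 and 6.49), at least 2.31-fold higher (adjusted p = 0.000186). *Slc24a3*, an exchanger of sodium for calcium and potassium, showed the opposite pattern, at 5.91, 5.91 and 7.24 in oviduct and dark in ISM1/ISM2, at least 1.97-fold lower (adjusted p = 0.005). *Slc4a3*, an anion exchanger, rose by 0.78 log2.

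Probes disagreed for *Slc9a8*, a sodium-proton exchanger: the brighter one rose by 1.11 log2 in ISM1/ISM2 (adjusted p = 0.0187) and the other differed by -1.51. In HTF/MultiBlast *Slc12a7*, the potassium-chloride cotransporter Kcc4, rose by 1.22 ± 0.31 log2 (adjusted p = 0.0357). It was detected on 1 of 3 oviduct arrays, and 15 of 23 alternatives lost the call. The calcium exchanger *Slc8a1* had the flattest group means of the class, spanning 0.11 log2, followed by *Slc12a9* at 0.24.

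The sulfate carrier *Slc13a4* separated 2 culture groups from the rest. It was dark on all arrays of oviduct (4.34, 4.48 and 4.49), KSOM(aa) (4.81 and 5.15) and the control (5.26, 4.74 and 4.64). HTF/MultiBlast arrays read 6.60, 6.16 and 5.74 and ISM1/ISM2 arrays 7.59, 7.57 and 7.68. The gene passed the detection filter only through the arrays of these groups. *Slc13a4* was at least 4.80-fold higher in ISM1/ISM2 than in oviduct (adjusted p = 1.6e-06) and at least 1.76-fold higher in HTF/MultiBlast (adjusted p = 0.000843, but 0.201 under scaling to the 75th percentile). *Slc20a2*, a sodium-phosphate cotransporter, fell by 0.68 log2 in HTF/MultiBlast (adjusted p = 0.0411, lost in 13 alternatives). In ISM1/ISM2 it fell by 1.43 ± 0.18 log2 (adjusted p = 8.71e-05).

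These 2 genes and *Slc20a1*, the paralog of *Slc20a2*, which fell by 0.55 log2, were the calls among 7 phosphate, sulfate and vesicular carriers in ISM1/ISM2 (1 higher, 2 lower, and 1 each way under scaling to the 75th percentile). They made up 42.9% of the class, against 25.8% of all units. *Slc34a2*, a further sodium-phosphate cotransporter, and *Slc13a2*, a citrate carrier, had group means spanning 0.26 and 0.85 log2. Among 9 members of the sugar families, 3 rose and 0 fell in ISM1/ISM2 (33.3%, against 25.8% of all units). *Slc2a8* is Glut8, an intracellular glucose transporter known from mouse blastocysts. It read 6.60, 6.13 and 5.42 in oviduct, 6.54, 7.15 and 7.53 in HTF/MultiBlast and 7.66, 7.63 and 7.28 in ISM1/ISM2, where no array overlapped oviduct. Its rise was 1.48 ± 0.31 log2 (adjusted p = 0.00405).

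The other 2 calls of the sugar families concern other substrates. *Slc5a6* carries biotin and pantothenate and rose by 0.72 log2, and *Slc5a11*, a myo-inositol carrier, rose by 0.67. *Slc45a3* and *Slc37a4*, the latter being the glucose 6-phosphate carrier of the endoplasmic reticulum, had group means spanning 0.49 and 0.70 log2. Of the 2 members in other families, *Slc66a2* rose by 0.86 log2 in ISM1/ISM2 and *Slc66a1*, a lysosomal exporter of cationic amino acids, differed by 0.25.

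In all, 13 carriers were dark on every array of at least 1 group and detected on every array of another. The same count was not made over all units, so it is not read as a trait of the carriers. Of these, 5 were dark in oviduct and detected on all ISM1/ISM2 arrays: *Slc10a6*, *Slc13a4*, *Slc26a5*, *Slc29a4* and *Slc48a1*. The reverse held for *Slc10a7* and *Slc24a3*. *Slc29a4*, a monoamine carrier, was detected on all HTF/MultiBlast, ISM1/ISM2 and KSOM(aa) arrays, but its differences from oviduct did not pass.

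**Figure D5:**
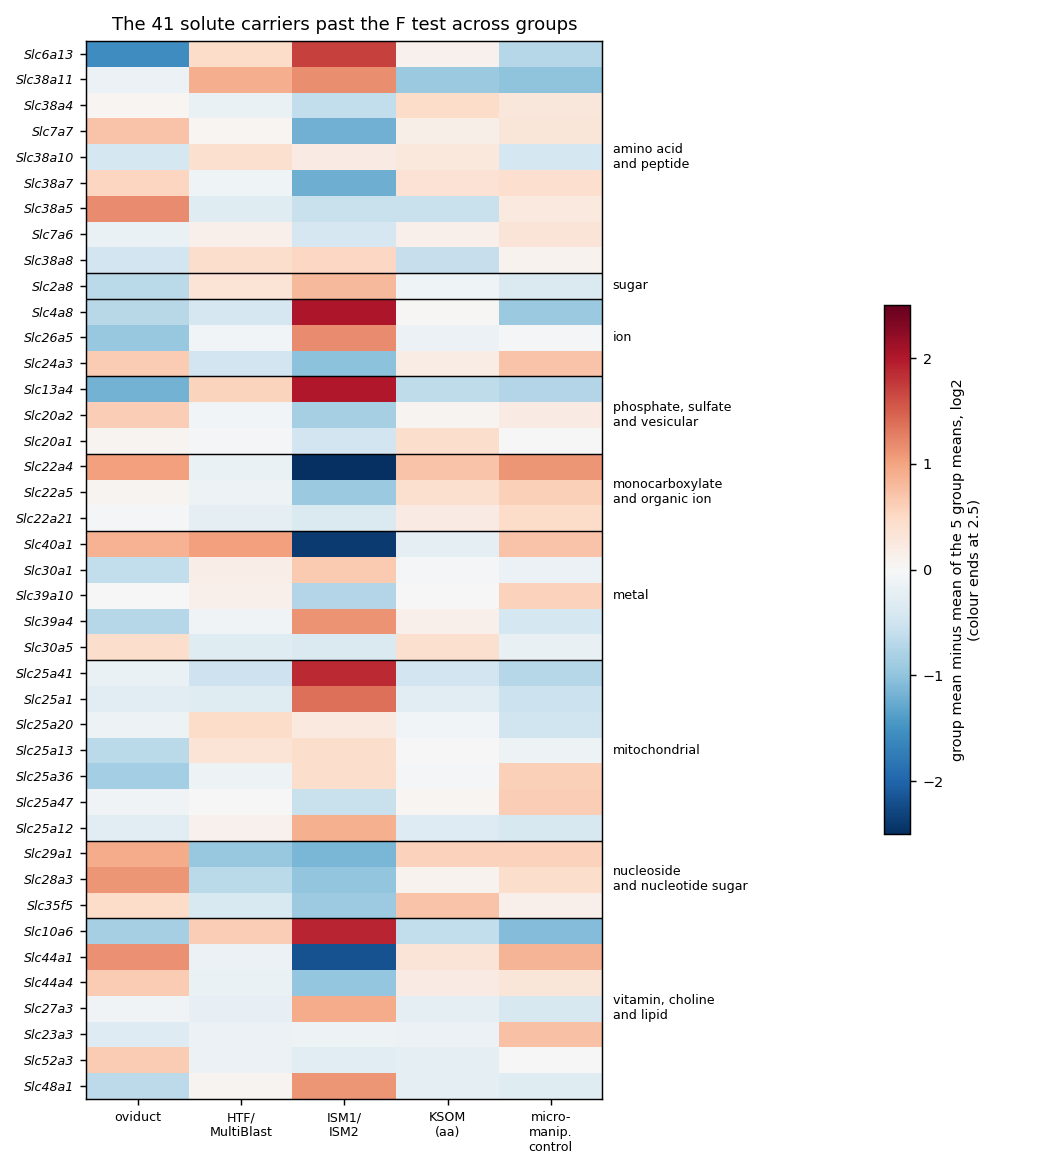
Group means of the 41 carriers past the F test, each centred on the mean of its 5 group means, in log2 units (red above, blue below) and ordered by substrate class. The ISM1/ISM2 column holds the highest mean of 16 genes and the lowest of 21.

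In KSOM(aa) and in the micromanipulation control no carrier passed against oviduct. KSOM(aa) had only 2 arrays. On simulated data, 24 of 100 changes of 1 log2 were recovered for KSOM(aa) against oviduct and 51 of 100 for the control. A missing call is therefore not read as a level equal to that of oviduct. In KSOM(aa) the smallest p-values above oviduct were those of *Slc23a4* (1.74 log2, adjusted p = 0.127), *Slc6a13* (1.65, adjusted p = 0.128) and *Slc25a16* (1.17, adjusted p = 0.148). Below it stood *Slc28a3*, *Slc52a3* (-0.88 log2, adjusted p = 0.15) and *Slc38a5* (adjusted p = 0.158). Leaving out single arrays gave 0 to 5 calls, with 5 without KSOM(aa) replicate 2, 4 without oviduct replicate 1 and 1 without oviduct replicate 2.

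In the control *Slc23a3* came nearest (adjusted p = 0.0609), detected on 2 control arrays and no oviduct array. It passed the detection filter only through those 2 arrays. *Slc25a36* differed by 1.46 log2 (adjusted p = 0.068) and *Slc25a16* by 0.96. *Slc35c2* (-0.96 log2, adjusted p = 0.106), *Slc52a3* (-0.63) and *Slc1a1* (-0.88), a glutamate transporter, stood below. Array weights gave 11 calls in place of 0, and leaving out single arrays 0 to 3, with 3 without either KSOM(aa) array or without oviduct replicate 2.

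Culture groups also differed from each other. HTF/MultiBlast and ISM1/ISM2 were separated by 16 carriers (10.6%), 8 higher in HTF/MultiBlast and 8 lower, where 7.13% of all units passed, 3.36% higher and 3.77% lower (4 carriers higher and 7 lower under scaling to the 75th percentile). Those higher in HTF/MultiBlast by the most were *Slc40a1* and *Slc22a4*, given above, *Slc44a1* (2.02 log2, adjusted p = 0.00456), *Slc36a1* (1.44, adjusted p = 0.0499) and *Slc4a2* (0.90, adjusted p = 0.0427). *Slc36a1* is a lysosomal amino acid exporter, *Slc4a2* a chloride-bicarbonate exchanger, and their calls were lost in 14 and 12 alternatives. Those lower by the most were *Slc4a8* (-2.45 log2, adjusted p = 0.00167), *Slc25a41*, *Slc25a1* (-1.67), *Slc13a4* (-1.45, adjusted p = 0.00232) and *Slc10a6* (-1.29, adjusted p = 0.0386). Leaving out single arrays gave 7 to 23 calls, with the fewest, 7, without ISM1/ISM2 replicate 1, 8 without HTF/MultiBlast replicate 1 or 3, 9 without its replicate 2, and 10 without control replicate 1 or 2.

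ISM1/ISM2 and KSOM(aa) were separated by 25 carriers (16.6%), 12 higher in ISM1/ISM2 and 13 lower, where 11.6% of all units passed, 6.29% higher and 5.32% lower (9 carriers higher and 15 lower with the authors' deposited values). *Slc13a4* was at least 4.92-fold higher (adjusted p = 6.38e-05), *Slc38a11* at least 2.95-fold (adjusted p = 0.0142) and *Slc10a6* at least 4.17-fold. *Slc4a8* was 2.00 log2 higher. The largest differences on the lower side were *Slc22a4* (-3.40 log2, adjusted p = 6.25e-06), *Slc44a1* (-2.49), *Slc40a1* (-2.17, adjusted p = 0.0301), *Slc29a1* (-1.72) and *Slc35f5* (-1.63). The count was 14 without ISM1/ISM2 replicate 1 and 6 when only these groups were fitted. Between HTF/MultiBlast and KSOM(aa) 1 carrier passed, *Slc29a1*, at -1.54 ± 0.27 log2 (adjusted p = 0.0377), where 0.265% of all units did, and 15 of 24 alternatives lost the call. Among single arrays these were KSOM(aa) replicate 2, oviduct replicate 2, ISM1/ISM2 replicate 3 and any 1 array of HTF/MultiBlast or of the micromanipulation control.

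The 12 of the 16 left-out carriers that were tested had 9 calls in ISM1/ISM2 (2 higher, 7 lower), at a median of -2.53 log2. The median of the 151 carriers was 0.00. Because the 16 were set aside with earlier results of these data known, the gap between these medians is not read as a result. Transport genes outside the set (ATP-binding cassette carriers, ion pumps, *Slco* carriers and aquaporins) had 10 calls among 59 in ISM1/ISM2 (16.9%, below the 25.8% of all units). Of these, 7 were higher and 3 lower, at a median of 0.11 log2 over the 59. In HTF/MultiBlast 1 of the 59 passed (1.69%, against 6.18% of all units).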

How the data were processed

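The authors deposited intensity values, bead summaries per probe without background correction or normalization, and detection p-values, from BeadStudio 3.2 per the submitters' processing notes. The authors' deposited log2 values (lumi and RMA, per the same notes) were used as an alternative only (same quantiles on every array; offset and background step not stated). Here intensities were background-corrected and quantile-normalized with neqc (limma 3.58.1, R 4.3.3, offset 16). Each symbol was represented by its brightest tested probe. One limma model of the 5 groups (lmFit, eBayes) gave 7 two-sided comparisons and an F test, with p-values adjusted by Benjamini-Hochberg over 8669 units. The rule for named genes took the 12 largest rises and falls past the threshold against oviduct, 5 each way in the other comparisons, and per class the 2 smallest F p-values and flattest genes detected on every array. Members named to account for a class's calls lie outside it. Members and lists were chosen with earlier results of these data known. The steps were tested on simulated data. The number of arrays limits the precision.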

Additional observations from a re-analysis of the deposited data

How the results depend on the processing

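Of the calls against oviduct, 3 of 12 in HTF/MultiBlast (*Slc6a13*, *Slc28a3*, *Slc29a1*) and 22 of 52 in ISM1/ISM2 passed in all 24 alternatives that gave them a value, and 6 of 16 and 5 of 25 did so in HTF/MultiBlast against ISM1/ISM2 and ISM1/ISM2 against KSOM(aa). Across alternatives 1 sign turned: *Slc9a8* in ISM1/ISM2 against oviduct, at -0.20 log2 with the mean of its probes. With probes detected on all arrays the counts were 7 (HTF/MultiBlast against oviduct), 34 (ISM1/ISM2 against oviduct), 10 (HTF/MultiBlast against ISM1/ISM2) and 0 (HTF/MultiBlast against KSOM(aa)). With array weights they were 30 and 11 for HTF/MultiBlast and the micromanipulation control against oviduct, 35 for HTF/MultiBlast against ISM1/ISM2, 0 and 9 for HTF/MultiBlast and ISM1/ISM2 against KSOM(aa), and 74 for the F test. Fitting only the groups compared gave 5 and 32 for HTF/MultiBlast and ISM1/ISM2 against oviduct, and 0 and 6 against KSOM(aa). Scaling to the 75th percentile without background correction gave 0 and 16 against KSOM(aa) and 23 for the F test. It gave 17 calls in HTF/MultiBlast against oviduct, 13 higher and 4 lower in place of 6 and 6, with only 3 of the 12 kept, and 4 higher and 7 lower in HTF/MultiBlast against ISM1/ISM2. The authors' values gave 5 higher and 3 lower in HTF/MultiBlast and, in ISM1/ISM2 against KSOM(aa), 9 higher and 15 lower, and they and keeping every probe gave 0 in HTF/MultiBlast against KSOM(aa). The cause of these shifts was not tested. Without single arrays the counts ran from 5 to 19, 37 to 59, 0 to 5 and 0 to 3 for HTF/MultiBlast, ISM1/ISM2, KSOM(aa) and the micromanipulation control against oviduct, from 7 to 23 for HTF/MultiBlast against ISM1/ISM2, from 0 to 2 and 14 to 31 for HTF/MultiBlast and ISM1/ISM2 against KSOM(aa), and from 20 to 55 for the F test (20 without ISM1/ISM2 replicate 1, 26 without its replicate 2 or control replicate 3). With the replicate block the counts were 10, 53, 0 and 0 against oviduct, 13, 1 and 24 in the other comparisons and 37 for the F test. The labels tie the numbers to no litter or day, and same-numbered arrays' deviations correlated at -0.36 to 0.43, so the numbers were not taken to pair samples. No slide was given, so a slide block was not run.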
